A study of Homo sapiens with 12 samples.

Results

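The comparison described here sets HMT-3522 S1 acini grown with 5-aza-2'-deoxycytidine (Aza) directly against acini of the same line grown with 18-alpha-glycyrrhetinic acid (AGA), gene by gene. The arrays were chosen by title: 4 Aza and 4 AGA arrays, 8 of the 12 in the series, paired by the replicate number in the title. HMT-3522 S1 is an established, non-malignant line of human breast epithelium whose cells form hollow, polarized spheres (acini) in laminin-rich gel. Cells of passage 55 to 60 were seeded at 35000 per cm2 and grown with 5% Matrigel in a defined medium that held insulin, hydrocortisone, estradiol and prolactin. EGF was present for the first 8 days and absent for the last 48 hours. Either drug was present at 10 µM throughout the 10 days of culture, and the medium was renewed every 2 days. Both drug-treated groups carry the label non-polarized, and the 4 vehicle arrays, shown beside them, the label polarized. All 12 samples came from 1 cell line, and each array held the RNA of 1 sample. No label says whether equal replicate numbers mark a shared culture day, so p-values measure only the spread between these samples.

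Aza is a cytidine analogue that is built into DNA, where it traps DNA methyltransferases, so that methylation is lost as cells divide. AGA is a licorice-derived triterpenoid used to close gap junctions, the channels that join neighbouring cells. It also inhibits the 11-beta-hydroxysteroid dehydrogenases, enzymes that interconvert active and inactive glucocorticoids. The drugs thus act on different targets, while the labels give both cultures the same loss of apical polarity.

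Levels are log2 intensities after quantile normalization, and each difference is Aza minus AGA in the paired fit. A probe set was called where its adjusted p (limma, Benjamini-Hochberg over all 22215 probe sets) was under 0.05. The fit called 189 probe sets (0.851%), of which 104 (0.468%) were higher in Aza and 85 (0.383%) were lower. The median difference was 0.65 among the higher calls and -0.57 among the lower ones. Only 24 of the higher and 18 of the lower calls passed 2-fold. All 4 same-number pairs had the sign of the call for 187 of the 189, and had 1 sign for 3870 of all 22215 probe sets. The calls come from a fit blocked on these pairs, so their agreement is no separate support. The AGA and Aza ranges did not overlap at all for 71 of the 189 calls, 38 higher and 33 lower, against 573 of all 22215 probe sets. By symbol, 79 genes were higher in Aza and 69 were lower, and none was called both ways.

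**Figure D1:**
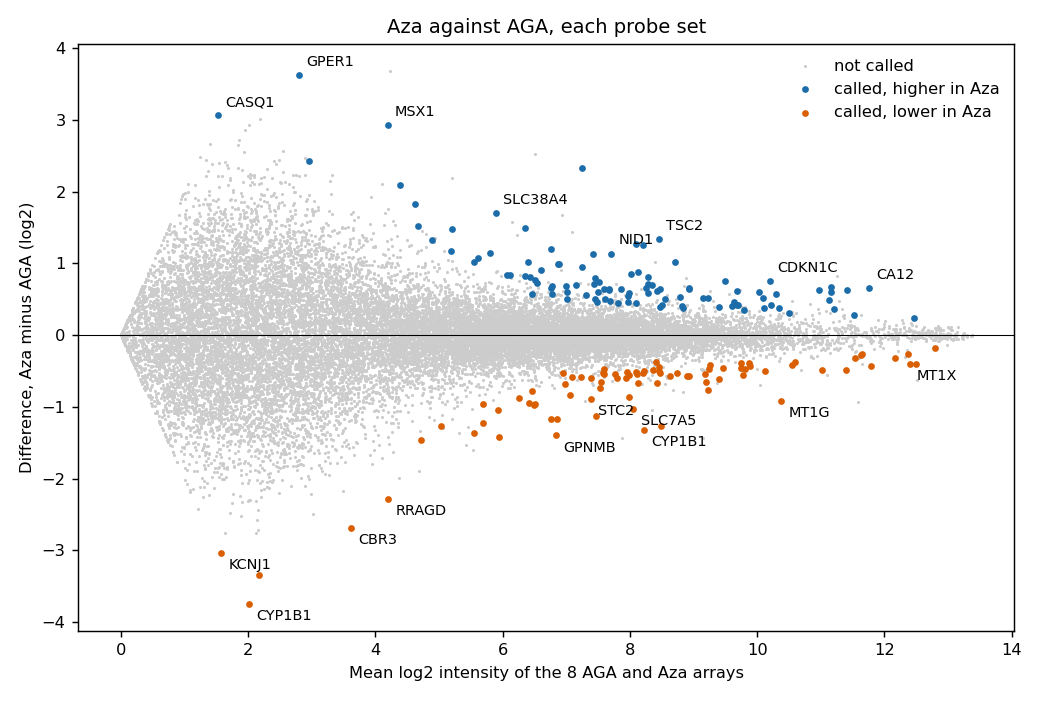
Difference between Aza and AGA (log2, vertical axis) against the mean log2 intensity of the 8 arrays (horizontal axis) for each probe set. Blue points are the 104 probe sets called higher in Aza, orange points the 85 called lower, and grey points were not called; most called points lie at moderate to high intensity and within 1 log2 unit of 0.

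The count rests on the pairing by replicate number and on the trend that lets the prior variance follow intensity. With no replicate block, limma called 0 probe sets (1016 at an unadjusted p under 0.05, against 2483 in the paired fit). With the block but no trend it called 2. Without the arrays of replicate 3 it called 27, without AGA replicate 3 it called 65, and without Aza replicate 3 it called 55. Of the 189 calls, 24 were kept in each of the 16 fits that left out arrays. On the deposited scale, where the Aza array had the higher median intensity in 3 of 4 pairs and the median of all probe sets shifted by 0.18, the split moved to 142 higher and 17 lower. All 189 calls kept their sign on that scale, which uses the same arrays.

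**Figure D2:**
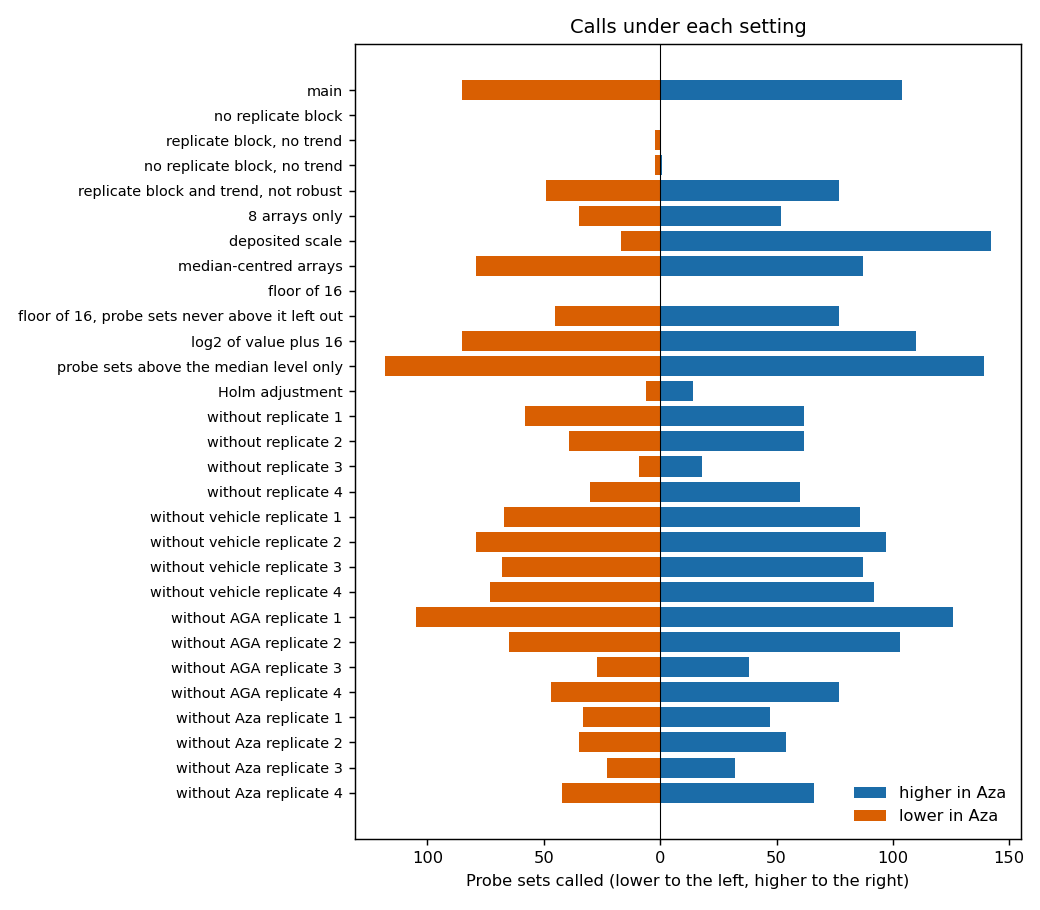
Probe sets called (horizontal axis, higher in Aza to the right, lower to the left) under each of the 28 alternative settings and the main one. The main bar holds 104 and 85, and the bars for no replicate block and for a floor of 16 are empty.

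Before normalization the AGA array was the dimmer one in 3 of 4 pairs, with a median intensity of 23.3 to 30.2 against 25.5 to 31.0 for Aza, and the share of values below 1 was higher in AGA in all 4 pairs. Both arrays of replicate 4 stood apart from the other 6 along the first principal component, which held 44.9% of the variance over brighter probe sets. Basal mammary markers were bright, with 8 of 9 above the median level, and none of 10 leukocyte markers was. Of the luminal markers 4 of 14 were above it, and of the myoepithelial ones 4 of 8. Differences were below 0 for 8 of 9 basal (median -0.29) and 10 of 14 luminal genes (median -0.21), beside 6146 of all 11963 genes. For myoepithelium 5 of 8 were above 0 (median 0.08). None of these epithelial markers was called. Group means of LYZ (0.24 in AGA, 0.00 in Aza), LUM (0.00 and 0.22) and CDH5 (0.76 and 0.33), markers of leukocytes, fibroblasts and endothelium, were near the floor. Other members were not: COL1A1, a fibroblast marker, read 6.88 in AGA and 7.33 in Aza and was higher in 4 of 4 pairs without passing (0.45, limma adjusted p = 0.0952), and the leukocyte markers CSF1R and CD14 read 4.05 and 3.76 in AGA and 3.17 and 2.17 in Aza. The mean over the leukocyte list ran from 2.18 to 2.72 in AGA and from 1.81 to 2.85 in Aza. One gene each of the fibroblast (DCN), endothelial (KDR) and adipocyte (CIDEC) lists was called higher in Aza (group means of 4.47 and 5.94 for DCN, 7.15 and 7.89 for KDR, 5.60 and 7.09 for CIDEC). The fibroblast and adipocyte lists did not separate. Fibroblast means ran from 2.61 to 3.21 in AGA and from 2.78 to 3.42 in Aza, and adipocyte means from 2.88 to 3.79 and from 3.32 to 3.94. The endothelial means were lower in Aza, 1.83 to 2.16 against 2.26 to 3.04. The part of these lists, or of array brightness, in the differences below was not tested. In bulk RNA, fewer cells of a type and less RNA per cell cannot be told apart.

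Metallothioneins are small cysteine-rich proteins that bind zinc, copper and cadmium, and their genes are switched on by the metal-sensing factor MTF1 through metal response elements. MT1E, MT1F, MT1G, MT1X and MT2A were lower in Aza, on 8 probe sets in all. That is 5 of 9 genes measured in the list of metallothioneins and zinc export, against 0.443% of all genes called lower by their brightest probe set, and all 9 had a difference below 0 (median -0.41). MT1G differed most among the calls: it read 10.72, 10.68, 11.54 and 10.39 in AGA replicates 1 to 4 and 9.65, 9.73, 10.16 and 10.13 in Aza. Every AGA array was above every Aza array, with a difference of -0.92 ± 0.15 (SE, n = 4 pairs, limma adjusted p = 0.0100). Each SE given here is that of the limma fit over all 12 arrays, not the spread of the 4 pairs alone. MT1X read 12.60, 12.48, 12.83 and 12.48 in AGA and 12.28, 12.08, 12.24 and 12.19 in Aza, again without overlap (-0.40 ± 0.05, limma adjusted p = 0.00186). MT2A read 12.62, 12.69, 13.03 and 12.49 in AGA and 12.49, 12.25, 12.40 and 12.06 in Aza. Its difference was -0.41, and the ranges met, as the lowest AGA array equalled the highest Aza array to 2 decimals. On their brighter probe sets MT1F differed by -0.48 and MT1E by -0.26. The vehicle means lay beside Aza: 9.81 for MT1G (AGA 10.84, Aza 9.92) and 12.22 for MT1X (AGA 12.60, Aza 12.20). Metallothionein messages are nearly identical and their probe sets can cross-hybridise, so the genes cannot be separated with confidence. Without the arrays of replicate 3, where MT1G was highest in AGA, 2 of the 8 probe sets were called, and on the deposited scale 1 was.

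The promoter stretches of MT2A and MT1X are shown because both genes were called and have a window in the RefSeq table (GRCh38.p14). Both are given 5′ to 3′ on the + strand, at chr16:56608404-56608544 and chr16:56682310-56682430, and end 40 bases before the transcription start. Capitals mark matches, on either strand, to the metal response core TGCNCNC.
MT2A: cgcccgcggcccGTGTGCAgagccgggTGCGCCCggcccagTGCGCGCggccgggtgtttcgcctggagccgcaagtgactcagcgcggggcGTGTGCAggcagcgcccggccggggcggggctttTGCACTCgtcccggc
MT1X: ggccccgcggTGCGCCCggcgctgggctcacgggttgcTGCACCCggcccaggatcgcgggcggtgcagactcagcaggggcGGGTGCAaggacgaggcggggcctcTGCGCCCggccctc
The MT2A stretch held 5 matches and the MT1X stretch 4. At least 1 match is common in windows of 300 bases: 62.5% of 9562 genes had one, as did 62.7% of the called genes that were lower in Aza. The matches are a description of the letters only.

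ATF4 is the transcription factor of the amino acid and integrated stress response, and it drives amino acid importers and synthetic enzymes. Of 27 such genes measured, 8 were lower in Aza and none was higher, against 0.443% and 0.552% of all genes; 21 of the 27 differences were below 0 (median -0.27, against -0.01 over all 11963 genes). The importers came first. SLC7A5, the light chain of the leucine transporter, read 8.57, 8.65, 8.50 and 8.53 in AGA replicates 1 to 4 and 7.97, 7.89, 6.80 and 7.51 in Aza. The groups did not overlap (-1.03 ± 0.14, 2.04-fold, limma adjusted p = 0.00178). SLC3A2, the heavy chain that carries SLC7A5 and SLC7A11 to the membrane, differed by -0.67. SLC7A11, the cystine importer that feeds glutathione synthesis, read 7.01, 8.11, 7.65 and 6.62 in AGA and 6.62, 6.79, 6.04 and 5.28 in Aza, lower in each pair but with overlapping ranges (-1.17 ± 0.19). A second SLC7A11 probe set gave -1.16 and was called, and another, dim one gave 0.22 and was not.

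Among the enzymes and secreted products of the same list, STC2, the secreted glycoprotein stanniocalcin 2, read 7.55, 7.89, 8.15 and 7.72 in AGA and 6.45, 7.26, 7.27 and 6.78 in Aza. The groups did not overlap (-0.89 ± 0.11, limma adjusted p = 0.000974). ASNS, which makes asparagine, read 5.96, 6.91, 7.69 and 7.35 in AGA and 5.54, 5.90, 5.68 and 6.88 in Aza, so the AGA array of replicate 1 lay within the Aza range (-0.98 ± 0.21). TRIB3, a pseudokinase that feeds back on ATF4, was level in replicate 1 (5.54 in AGA and 5.55 in Aza) and lower in Aza in the other 3 pairs (-1.04 ± 0.23). MTHFD2, of mitochondrial folate metabolism, and GARS1, the glycyl-tRNA synthetase, differed by -0.38 and -0.45. SLC7A5 and STC2 stayed called in all 16 fits that left out arrays. TRIB3 stayed called in 3 of them, MTHFD2 and GARS1 in 4, ASNS in 6, the brightest SLC7A11 probe set in 13 and SLC3A2 in 15. Apart from SLC7A5 and STC2, each of these probe sets lost its call without replicate 3, though the second SLC7A11 probe set kept it (0.0398). In that fit limma's adjusted p was 0.356 for TRIB3 and 0.0825 for SLC3A2. Of the 9 called probe sets of the list, 3 were called without each of replicates 2, 3 and 4, and 4 on the deposited scale. Vehicle means lay close to Aza for SLC7A5 (7.72 in vehicle, 8.57 in AGA, 7.54 in Aza), SLC3A2 (8.12, 8.76 and 8.10) and TRIB3 (5.41, 6.45 and 5.41).

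**Figure D3:**
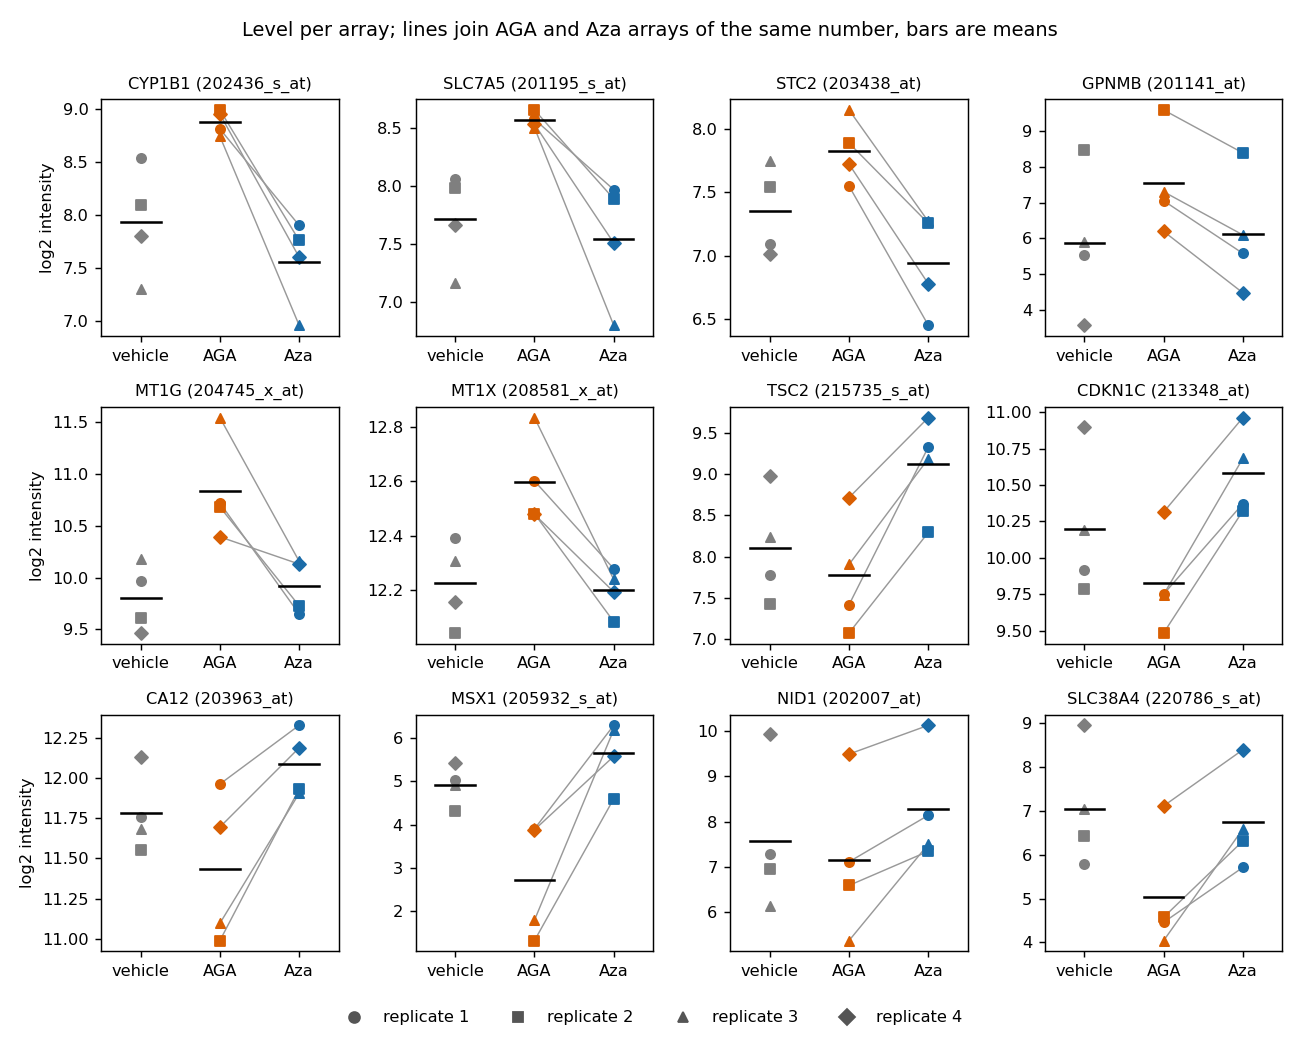
Log2 intensity on each array for 12 called genes, with vehicle in grey, AGA in orange and Aza in blue; shapes give the replicate number, lines join AGA and Aza arrays of the same number, and bars are group means. In the first 6 panels (CYP1B1 to MT1X) the Aza array lies below the AGA array in every pair, and in the last 6 (TSC2 to SLC38A4) above it.

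NRF2 is a transcription factor of the response to oxidants and electrophiles, and it binds antioxidant response elements. Of 26 NRF2 target genes measured, 3 were lower in Aza (SLC7A11, EPHX1 and TXNRD1) and none was higher, against 0.443% and 0.552% of all genes. A difference below 0 was seen for 21 of the 26 (median -0.33) and for 6146 of all 11963 genes. SLC7A11 belongs to both the ATF4 and the NRF2 list. TXNRD1, the cytosolic thioredoxin reductase, read 10.15, 10.80, 10.19 and 10.33 in AGA and 10.07, 9.86, 9.53 and 10.01 in Aza, without overlap but with a gap of only 0.08 in replicate 1 (-0.50 ± 0.11, limma adjusted p = 0.0467). EPHX1, the microsomal epoxide hydrolase, differed by -0.65 ± 0.13. FTL, the ferritin light chain, was called on 1 of its 2 probe sets (-0.32, and -0.21 on the brighter one). The mitochondrial counterpart of TXNRD1, TXNRD2, was higher in Aza on 1 of 2 probe sets (0.50), a call kept in 1 of 16 fits that left out arrays. TXNRD1 and that FTL probe set kept their call in 3 of 16 fits that left out arrays and EPHX1 in 7. Without replicate 3 the adjusted p was 0.352, 0.293 and 0.246 in that order. Of the 5 called NRF2 probe sets, none was called without replicate 2 or 4 (limma) and 2 were on the deposited scale. CBR3, a carbonyl reductase that is not on the NRF2 list, was among the largest differences of all. It read 4.39, 5.36, 5.71 and 4.41 in AGA and 0.76, 3.36, 3.91 and 1.08 in Aza (-2.69 ± 0.50), with vehicle at 4.72, 4.64, 4.39 and 4.02. The Aza arrays at 0.76 and 1.08 were near the floor, so this difference has no reliable size. Aza minus vehicle was -2.16 and did not pass (0.384). The call was lost in 8 of the 16 fits, with an adjusted p of 0.0808 without replicate 4.

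Stretches of 3 promoters are shown for these importers and enzymes, picked because they hold the response element letters of the factors named above. TXNRD1 (chr12:104215649-104215719, + strand, ending 60 bases before the start) and SLC3A2 (chr11:62881629-62881689, + strand, ending 10 bases before it) carry the antioxidant core TGACNNNGC in capitals. ASNS (chr7:97872448-97872518, - strand, ending 40 bases before the start) carries the ATF4 core TGATGNAA in capitals. All are 5′ to 3′ from RefSeq, GRCh38.p14, with both strands searched.
TXNRD1: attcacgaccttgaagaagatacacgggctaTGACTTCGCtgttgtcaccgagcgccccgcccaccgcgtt
SLC3A2: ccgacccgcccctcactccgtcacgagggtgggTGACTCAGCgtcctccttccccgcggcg
ASNS: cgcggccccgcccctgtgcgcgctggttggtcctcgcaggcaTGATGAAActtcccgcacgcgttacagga
Across all called genes with a window, the antioxidant core stood in 13 of 51 lower genes (25.5%) and 10 of 68 higher genes (14.7%), beside 14.9% of the 9562 windows. The ATF4 core stood in 4 lower (7.84%) and 3 higher genes (4.41%), beside 2.25%. The core GCGTG of the aryl hydrocarbon receptor's element was in 54.9% of lower, 42.6% of higher and 46.6% of all windows. Other called list members lacked the core of their factor. The windows of EPHX1 and FTL held no antioxidant core, and TXNRD1 was the only lower gene with it from the NRF2 list. The others were CAST, CFLAR, DEGS1, EIF5, GNPDA1, MT1X, MT2A, MTHFD2, SLC3A2, SLC7A5, STC2 and TRIB3, which are not on that list. Those of SLC7A5, STC2, TRIB3, MTHFD2 and GARS1 held no ATF4 core, while ASNS and SLC3A2 held one. DSG3 and KCNJ1, the other lower genes with the ATF4 core, are not on the ATF4 list. These cores are short, and the ATF4 and antioxidant counts come from few genes.

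CYP1B1, a cytochrome P450 that oxidises estrogens and polycyclic hydrocarbons and is a classic target of the aryl hydrocarbon receptor, was lower in Aza on 4 of 4 probe sets. The brightest read 8.81, 8.99, 8.74 and 8.95 in AGA and 7.90, 7.76, 6.96 and 7.60 in Aza (-1.32 ± 0.14, 2.49-fold, limma adjusted p = 0.000426). It did not overlap between the groups and stayed called in all 16 fits that left out arrays. The next 2 gave -1.13 and -0.95. The fourth read 3.35 to 4.80 in AGA and at most 0.45 in Aza, where 2 arrays were at the floor of 0, so its -3.75 has no reliable size. Vehicle arrays read 8.54, 8.10, 7.30 and 7.80 on the brightest probe set, below every AGA array but overlapping Aza. Without replicate 3, 1 of the 4 probe sets was called. CYP1B1 was the only one of 8 measured receptor targets to pass. NQO1, shared with the NRF2 response, gave -0.48 (limma adjusted p = 0.307), and TIPARP gave 0.19 (0.436).

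Of 29 lysosomal genes measured, 4 were called lower in Aza and none higher, against 0.443% and 0.552% of all genes, and 25 had a difference below 0 (median -0.21). GPNMB, a membrane glycoprotein of lysosomes and melanosomes, read 7.05, 9.59, 7.30 and 6.19 in AGA and 5.58, 8.39, 6.10 and 4.48 in Aza. Its level varied over 3 log2 units between replicates, yet the pairs differed by -1.20 to -1.72 (-1.40 ± 0.19, 2.64-fold, limma adjusted p = 0.00178), and it stayed called in all 16 fits. CTSH, an aminopeptidase of the cathepsin family, read 5.57, 5.45, 5.31 and 5.47 in AGA and 4.59, 4.40, 3.84 and 3.14 in Aza, without overlap (-1.46 ± 0.30). PSAP, the precursor of the saposins that help degrade sphingolipids, differed by -0.56 and NPC2, a carrier of cholesterol out of lysosomes, by -0.46. CTSB, cathepsin B, was called on 2 of 4 probe sets (-0.46 and -0.53), while its brightest gave -0.13. Outside the list, and picked after the values were seen, ATP6V0C, a subunit of the lysosomal proton pump, was also lower (-0.58 on 1 of 2 probe sets). RRAGD, a GTPase that ties lysosomes to the growth kinase mTORC1, read 5.65, 6.91, 5.49 and 3.34 in AGA and 1.67, 5.31, 4.25 and 1.02 in Aza (-2.29 ± 0.43). Its second probe set gave -1.50 and was not called. Without replicate 3, CTSH, PSAP and NPC2 were not called (adjusted p 0.193, 0.226 and 0.157), and 1 of the 6 lysosomal probe sets was, as on the deposited scale. Leaving out 1 AGA or Aza array left 1 or 2 of the 6 called, except AGA replicate 1, which left 5. RRAGD kept its call in 10 of 16 fits and was lost without any 1 replicate number, at 0.0946 without replicate 2, 0.0723 without replicate 3 and 0.0534 without replicate 4.

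Antigen presentation and interferon genes leaned the same way without passing. All 16 measured MHC class I pathway genes had a difference below 0 by their brightest probe set (median -0.43), but none was called. HLA-E came nearest (-0.44, limma adjusted p = 0.0558). HLA-B was called on its dimmest probe set, which read 5.29, 6.54, 7.46 and 7.29 in AGA and 4.33, 5.30, 5.32 and 5.96 in Aza (-1.42 ± 0.24). Its other probe sets gave -0.71 and -0.56 and were not, and class I genes can cross-hybridise. The call was lost without AGA or Aza replicate 3 and without the whole of replicate 3 (0.0928) or 4. Of 43 interferon response genes, 37 were below 0 (median -0.35) and none was called; IFIT1 gave -0.83 (0.0507). The size of both shifts varied between pairs: the class I median was -0.07 in pair 1 and -0.81 in pair 3. Outside these lists, and picked after the values were seen, CD58, the ligand of CD2, was lower on 1 of 5 probe sets (-0.74) and CD59, an inhibitor of complement, on 1 of 4 (-0.44).

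**Figure D4:**
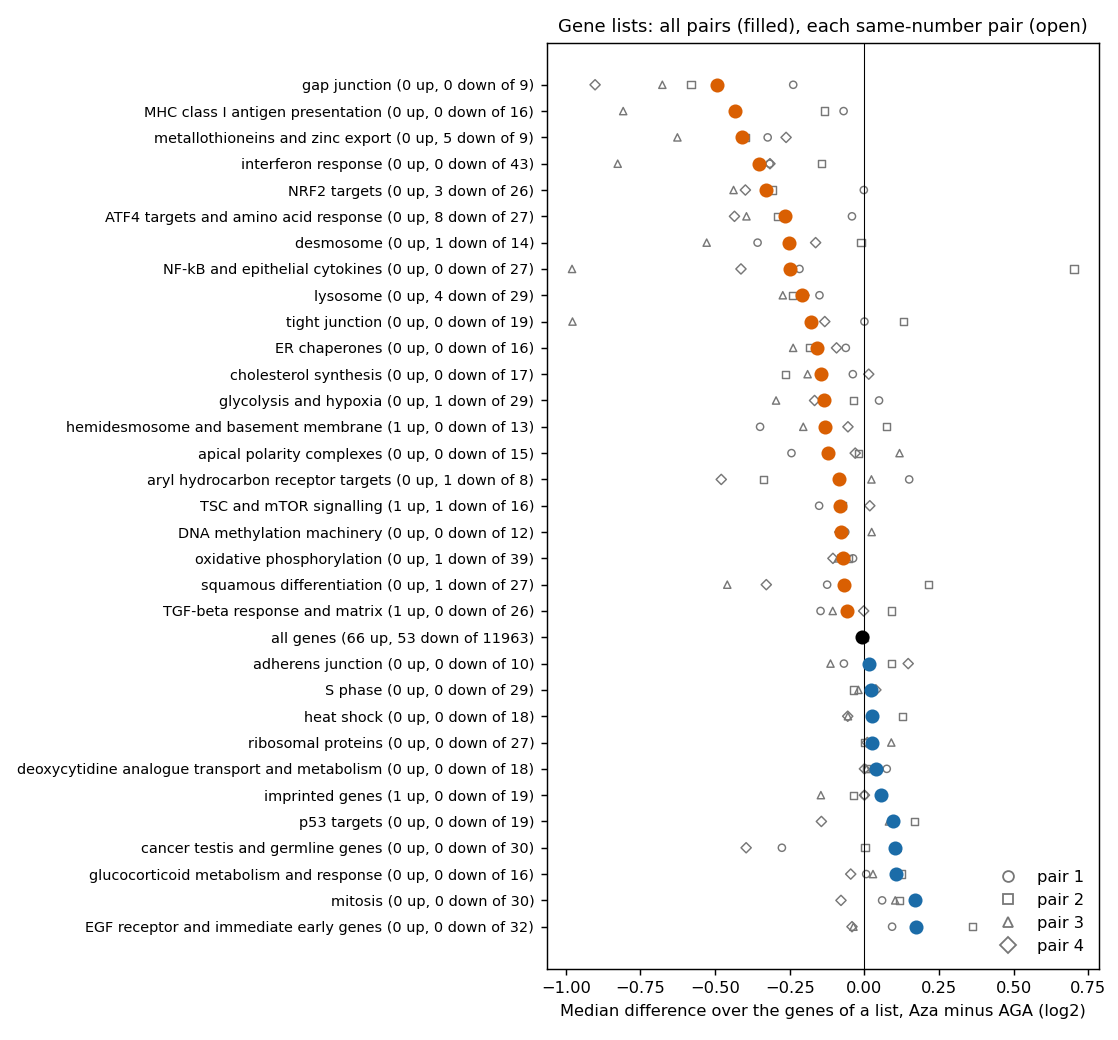
Median difference (log2, Aza minus AGA) over the measured genes of each list, with filled points for the fit over all pairs and open points for each same-number pair; labels give the genes called higher and lower of those measured. The median of all 11963 genes is -0.01, and the ATF4, metallothionein and lysosome lists hold the most calls.

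Among adhesion and keratin genes, DSG3, a cadherin of desmosomes, was lower in Aza (-0.57 ± 0.11, limma adjusted p = 0.0142). DSG3 was the 1 call among 14 desmosome genes, of which 13 were below 0. DSG2 gave -0.47 (0.0620) and the plaque protein PKP1 -0.48 (0.0672). FAT2, a giant protocadherin of stratified epithelia, read 5.86, 7.13, 6.48 and 5.46 in AGA and 4.26, 6.74, 5.04 and 3.46 in Aza (-1.36 ± 0.22). KRT16, a keratin of activated squamous epithelium, read 7.88, 8.15, 9.17 and 11.28 in AGA and 7.0, 7.28, 7.78 and 9.34 in Aza (-1.27 ± 0.24). It was lower in each pair across a range of 3 log2 units, and it was the 1 call among 27 squamous genes. Tight junction (19 measured), adherens junction (10) and apical polarity genes (15) had no call. Over all genes 0.552% were called higher and 0.443% lower, so no call in lists of this size is near that share. The tight junction list was also dim, with a mean of 3.24 in AGA and 3.12 in Aza, below the median level of 4.76. The absence of calls thus says little about the polarity machinery. CDH1, the epithelial cadherin, differed by -0.18, the tight junction scaffold TJP1 by 0.16, the polarity protein PARD3 by -0.14 and the hemidesmosome integrin ITGB4 by -0.13. Without replicate 3 none of DSG3 (0.193), FAT2 (0.104) and KRT16 (0.261) was called.

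ATP1B1, the beta subunit of the sodium pump, was lower on both probe sets, the brighter at 9.50, 10.21, 10.27 and 8.44 in AGA and 8.61, 9.79, 9.34 and 7.65 in Aza (-0.76 ± 0.09, limma adjusted p = 0.000974). P4HA2, a collagen prolyl hydroxylase raised by hypoxia, gave -0.57 ± 0.09 and was the 1 lower call among 29 glycolysis and hypoxia genes, 20 of which were below 0. COX7C, a subunit of cytochrome oxidase, gave -0.26 and was the 1 call among 39 respiratory chain genes. The brighter ATP1B1 probe set was called in all 16 fits that left out arrays, P4HA2 in 15 (adjusted p 0.0708 without replicate 3) and COX7C in 2. MARK4, a microtubule affinity kinase, and PID1, an adaptor of lipoprotein receptor signalling, gave -1.27 and -1.22. TMEM106C, a membrane protein, gave -0.96. MARK4 kept its call in 2 of the 16 fits, PID1 in 3 and TMEM106C in 15.

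On the other side, CDKN1C, the imprinted inhibitor of cyclin-dependent kinases also called p57, was higher in Aza on 4 of 5 probe sets. The brightest read 9.75, 9.49, 9.75 and 10.31 in AGA and 10.37, 10.32, 10.68 and 10.96 in Aza, and no Aza array was below an AGA array (0.76 ± 0.08, 1.69-fold, limma adjusted p = 0.000426). The other called probe sets gave 0.69, 0.88 and 0.65, and the fifth gave 0.00. The vehicle arrays, at 9.91, 9.79, 10.19 and 10.89, had their mean of 10.20 between AGA (9.83) and Aza (10.58). CDKN1C was the 1 call among 19 imprinted genes, of which 10 were above 0 and 9 below. The brightest probe set was called in all 16 fits that left out arrays. The lists of p53 targets (19 measured, CDKN1A at -0.01), mitosis (30) and S phase (29) held 0 calls. That is near the share over all genes, 0.552% called higher and 0.443% lower.

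CA12, a membrane-bound carbonic anhydrase of the cell surface that is abundant in estrogen-responsive mammary cells, was higher in Aza on 6 of 6 probe sets, by 0.61 to 1.02. The brightest read 11.96, 10.99, 11.10 and 11.69 in AGA and 12.33, 11.93, 11.90 and 12.19 in Aza, higher in each pair with ranges that just overlapped (0.65 ± 0.11). The next brightest read 10.99, 10.38, 10.68 and 11.24 in AGA and 11.54, 11.35, 11.37 and 11.70 in Aza, without overlap (0.67 ± 0.07, limma adjusted p = 0.000608). Vehicle means again lay between, at 11.78 beside 11.44 and 12.09 for the brightest. Without replicate 3, 2 of the 6 CA12 and 2 of the 4 CDKN1C probe sets were called, and without AGA or Aza replicate 3 alone, 3 of 6 and 3 of 4.

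**Figure D5:**
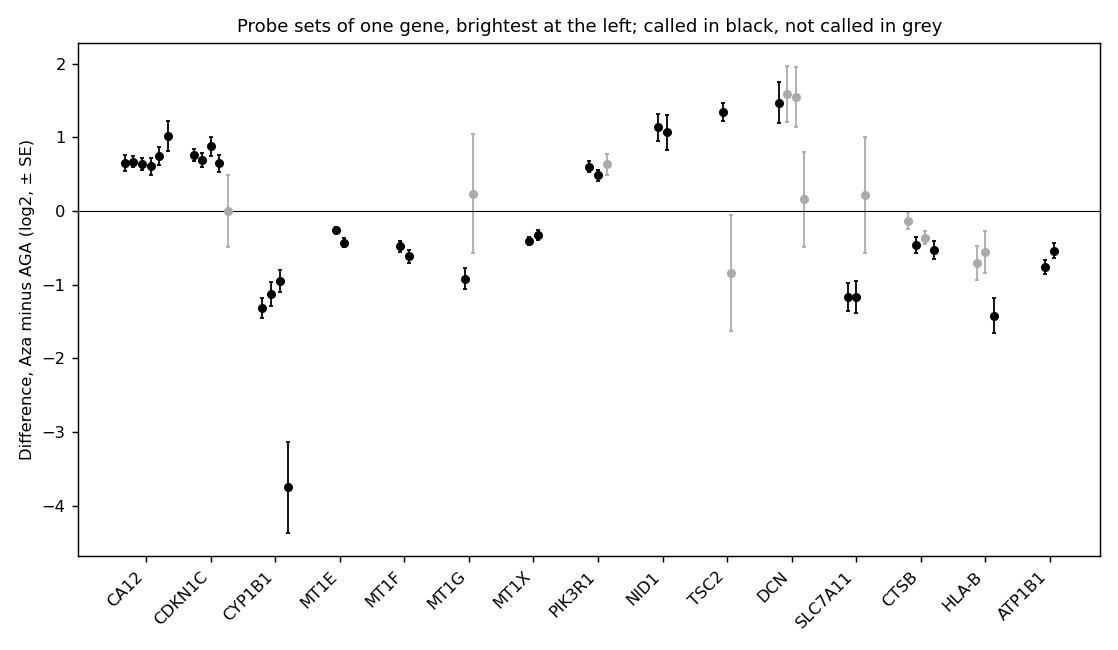
Difference between Aza and AGA (log2, with bars of 1 SE from the limma fit over all 12 arrays) for every probe set of 15 called genes, brightest at the left within a gene. Called probe sets are black and the others grey. The 6 CA12 probe sets lie between 0.61 and 1.02, while TSC2 has 1 called probe set at 1.35 and a dim one at -0.84.

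TSC2, the tumour suppressor tuberin that restrains mTORC1, had the lowest adjusted p of the comparison. One probe set read 7.42, 7.07, 7.91 and 8.72 in AGA and 9.33, 8.29, 9.19 and 9.69 in Aza, higher in each pair (1.35 ± 0.12, 2.54-fold, limma adjusted p = 0.000168). The ranges overlapped because replicate 4 of AGA was high, and pairing by number removed that spread. Vehicle read 7.78, 7.42, 8.24 and 8.98. The other TSC2 probe set was dim, at 3.02 to 3.64 in AGA and 0.10 to 3.57 in Aza, and gave -0.84 (0.755), so the gene rests on 1 probe set. Of 16 TSC and mTOR genes measured, TSC2 was the only one higher and RRAGD the only one lower. TSC1, its partner, gave -0.02, MTOR itself 0.12 and DEPTOR, an inhibitor of the kinase, 0.45 (0.114).

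Matrix and secreted genes were higher in Aza in a few cases. NID1, the basement membrane protein nidogen 1, read 7.11, 6.59, 5.37 and 9.49 in AGA and 8.14, 7.34, 7.50 and 10.13 in Aza (1.14 ± 0.18), and its second probe set gave 1.07. It was the 1 higher call among 13 hemidesmosome and basement membrane genes, 9 of which were below 0, among them COL4A1 (-0.54, limma adjusted p = 0.0620). DCN, the matrix proteoglycan decorin, read 4.45, 4.75, 4.24 and 4.43 in AGA and 6.10, 5.77, 6.58 and 5.31 in Aza, without overlap (1.47 ± 0.28). Vehicle read 4.99, 4.94, 4.94 and 3.67, and Aza minus vehicle was 1.31 (0.288). Another 2 DCN probe sets gave 1.59 and 1.55 without passing. TIMP3, an inhibitor of metalloproteinases held in the matrix, gave 0.51 and was the 1 call among 26 TGF-beta and matrix genes. RBP4, the plasma carrier of retinol, read 6.16, 3.99, 3.74 and 1.74 in AGA and 7.11, 5.24, 5.63 and 3.75 in Aza (1.52 ± 0.29), and its other probe set gave -1.27 uncalled. The NID1 call held in all 16 fits that left out arrays, while without replicate 3 the adjusted p was 0.255 for DCN, 0.149 for TIMP3 and 0.194 for RBP4.

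MSX1, a homeobox factor of developing epithelia, had the largest difference among higher calls whose Aza mean was above the median level. It read 3.90, 1.33, 1.80 and 3.88 in AGA and 6.29, 4.59, 6.18 and 5.57 in Aza, without overlap, and vehicle read 5.02, 4.30, 4.90 and 5.41 (2.93 ± 0.40, limma adjusted p = 0.00187). AGA was thus the low group for MSX1. The same held for SLC38A4, an amino acid transporter of the system A family, at 4.46, 4.57, 4.04 and 7.11 in AGA, 5.71, 6.31, 6.58 and 8.39 in Aza and 5.78, 6.42, 7.04 and 8.95 in vehicle (1.70 ± 0.21, limma adjusted p = 0.000974). PIK3R1, the regulatory subunit of phosphoinositide 3-kinase, was higher on 2 of 3 probe sets, the brighter call at 10.78, 10.82, 10.50 and 11.32 in AGA and 11.27, 11.14, 11.38 and 12.03 in Aza (0.60 ± 0.08). Its vehicle mean, 11.42, lay with Aza (11.46).

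FAIM, an inhibitor of Fas-induced death, read 7.58, 7.82, 7.51 and 7.38 in AGA and 8.93, 8.59, 9.55 and 8.24 in Aza, without overlap (1.25 ± 0.15, limma adjusted p = 0.000974). KLHL3, a substrate adaptor of a ubiquitin ligase, gave 1.21 and IL1RL1, the interleukin 33 receptor, 1.13. IL1RL1 read 6.52, 6.28, 6.74 and 7.91 in AGA and 7.31, 7.50, 7.49 and 9.66 in Aza, replicate 4 being high in both. MYOT, a sarcomere protein, gave 1.28 and PRKD1, protein kinase D1, 0.85, both without overlap. CIDEC, a protein of lipid droplets, read 5.36, 5.04, 5.54 and 6.46 in AGA and 7.20, 5.36, 7.70 and 8.09 in Aza (1.49 ± 0.22). RAB40A (1.83), ZNF589 (1.15) and RACGAP1 (1.02) complete the named genes. MSX1, SLC38A4, FAIM, KLHL3, IL1RL1, MYOT, PRKD1 and the brighter PIK3R1 call stayed called in all 16 fits that left out arrays. CIDEC was lost without replicate 3 (0.0756), as were ZNF589 (0.142) and RAB40A (0.205), and RACGAP1 kept its call in 3 fits.

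A further 2 groups were picked after their values were seen and support nothing as groups. Genes of lipid handling higher in Aza were FASN, fatty acid synthase (0.95), AACS, which activates acetoacetate (0.64), ABCA1, the cholesterol exporter (0.60), and ABCD3, a peroxisomal transporter (0.42). Cholesterol synthesis genes (17 measured) had no call. Genes of RNA processing higher in Aza were HNRNPD (0.85), TIA1 (0.72), SRSF11 (0.58), HNRNPA2B1 (0.51), RBM8A (0.40) and CLK1 (0.37). The call rested on 1 of 6 probe sets for HNRNPD, 1 of 5 for TIA1, 1 of 4 for RBM8A and 1 of 3 for SRSF11, and the brightest HNRNPD probe set gave 0.15. Of 16 fits that left out arrays, FASN and HNRNPA2B1 kept their call in 15, AACS in 12, ABCD3 in 11, HNRNPD in 10 and SRSF11 in 8. TIA1 kept it in 6, ABCA1 in 5, and RBM8A and CLK1 in 1. Without replicate 3 no gene of these lipid and RNA groups was called. Where a called gene had other probe sets that were not called, 124 of those 154 shared its sign.

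The genes nearest to each drug's target did not pass. The DNA methylation machinery had 0 calls among 12 genes: DNMT1, the maintenance methyltransferase, read 6.64, 6.43, 6.63 and 7.13 in AGA and 6.56, 6.25, 6.74 and 5.70 in Aza (-0.40 ± 0.21, limma adjusted p = 0.494). DNMT3A was near the floor and DNMT3B differed by -0.05. Cancer testis and germline genes, often cited as silenced by methylation, had 0 calls among 30, 18 of them above 0 and 12 below. Their mean level was 1.56 in AGA and 1.50 in Aza, near the floor and below the median level of 4.76. Only 6 of the 189 calls had their higher mean at or below that level, so this count cannot show whether such genes changed. Transport and metabolism of deoxycytidine analogues gave 0 calls among 18 genes. For AGA, GJA1, a connexin widely found in epithelia, read 8.79, 9.40, 8.41 and 8.30 in AGA and 8.41, 9.11, 8.29 and 7.74 in Aza. It was lower in each pair (-0.34 ± 0.09) and did not pass (limma adjusted p = 0.128), and of 9 gap junction genes 8 were below 0 with none called. HSD11B1 and HSD11B2, the dehydrogenases, gave 0.37 and 0.08 at low intensity, and 16 glucocorticoid genes had 0 calls. Immediate early genes (32), heat shock (18), ER chaperones (16, with 14 below 0) and ribosomal proteins (27) also had 0 calls. Over all genes 0.552% were called higher and 0.443% lower, so 0 calls in lists of this size is near that share.

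A few dim probe sets gave the largest numbers. GPER1, a membrane estrogen receptor, read 0.34, 1.52, 0.00 and 2.10 in AGA and 5.14, 4.37, 5.29 and 3.67 in Aza, with vehicle at 3.34, 3.19, 3.30 and 2.15 (3.63 ± 0.68, limma adjusted p = 0.0162). Its second probe set gave 0.79 uncalled. CASQ1, the calcium store protein calsequestrin, was at the floor on all 4 AGA arrays and at 2.49 to 3.73 in Aza. GABRR2, a GABA receptor subunit, gave 2.43. KCNJ1, a potassium channel, read 3.17, 3.11, 3.12 and 2.99 in AGA and was at the floor on 3 of 4 Aza arrays, and its other probe set gave -0.86 uncalled. Intensities this low have no meaningful fold. In the fits that left out arrays, GPER1 kept its call in 9, KCNJ1 in 7, CASQ1 in 3 and GABRR2 in 1 of 16, and all were lost without replicate 3.

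Vehicle values are set beside both groups as a description, since each difference shares arrays with the others. The vehicle mean lay between the AGA and Aza means for 90 of the 104 higher and 62 of the 85 lower calls. It was nearer to Aza than to AGA for 74 and 73 of them, beside 12312 of all 22215 probe sets. AGA minus vehicle passed in the same fit (limma) for CYP1B1 (0.94, adjusted p = 0.00547), SLC7A5 (0.85, 0.00922), MT1G (1.03, 0.00840), GPNMB (1.66, 0.00140) and SLC38A4 (-2.0, 0.00113). Aza minus vehicle did not pass for these genes, at -0.38 (0.710), -0.18 (0.884), 0.11 (0.947), 0.27 (0.860) and -0.30 (0.861) in the same order. TSC2 passed in Aza minus vehicle (1.02, limma adjusted p = 0.00793) and not in AGA minus vehicle (-0.32, 0.291). Neither passed for DCN or CBR3, whose AGA minus vehicle differences were -0.17 (0.882) and 0.53 (0.749). For CDKN1C, AGA minus vehicle was -0.37 (0.0457) and Aza minus vehicle 0.39 (0.288). For the brightest CA12 probe set they were -0.35 (0.200) and 0.31 (0.710), and neither passed. Passing in 1 of these differences and not in the other does not show that they differ. The GC content and CpG count of the 300-base promoter windows were close for both directions. Median GC was 65.8% in higher, 66.7% in lower and 64.0% in all windows, with a median of 26.5 CpGs in 68 higher genes, 27.0 in 51 lower genes and 24.0 in all 9562.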

How the data were processed

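Affymetrix arrays measured 22277 probe sets in 12 samples. The deposited values are intensities on a linear scale, made by the authors with GCOS, the Affymetrix operating software, per the submitters' processing notes; its algorithm and scaling are not given in the sources used here. Intensities below 1 were set to 1, log2 was taken, the arrays were quantile normalized together and 62 control probe sets were left out. Levels below an intensity of 1 thus read 0.

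limma 3.58.1 (R 4.3.3) fitted group and replicate number as a block over all 12 arrays, with an intensity trend and robust prior variance (6 residual degrees of freedom), two-sided, threshold 0.05. The fit was tested on simulated data. The number of arrays limits the precision.

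The pairing was checked by correlating deviations from group means. Same-number AGA and Aza arrays gave 0.37 to 0.73 on probe sets above the median level (4 of 4 over 0.1) and 0.06 to 0.24 over all (2 of 4 over 0.1). Array pairs of different number gave -0.49 to 0.13 and -0.11 to 0.03. Deviations sum to 0 within a group, so positive same-number values push the others below 0, and the contrast between them is partly fixed. On the brighter probe sets every negative value involved an array of replicate 4.

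Of the probe sets, 19064 carried 1 symbol in the platform annotation, 1043 several and 2108 none, covering 11963 genes. A gene is represented in a list by its brightest probe set. Named genes were the 14 largest called differences each way (1 symbol, the 4 pairs of one sign, the brighter group over the median level of probe sets), up to 4 dimmer ones each way, the called genes and up to 4 lowest-p genes of each list, and 16 preset target genes. The members, lists and the use of block and trend were chosen with earlier results of these data known. Promoter windows came from RefSeq (GRCh38.p14), and 68 of 79 higher and 51 of 69 lower genes matched. Alternatives tried were no block, no trend, other scalings, floors, filters and adjustments, and leaving out arrays.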

Additional observations from a re-analysis of the deposited data

Results flagged for a closer look

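Among the 66 groups of 4 arrays examined for the named probe sets (AGA and Aza apart), 3 held an array that lay farther from the rest than Dixon's 95% critical value allows for 4 samples. Chance gives about 1 in 20 groups. For IL1RL1, Aza replicate 4 was at 9.66 while the other 3 Aza arrays lay between 7.31 and 7.50. For RACGAP1, Aza replicate 2 was at 8.56 and the others between 9.40 and 9.53. For KCNJ1, Aza replicate 4 was at 0.24 and the others at the floor of 0. With 3 arrays at the floor any value above it gives the largest possible ratio, so the floor fixed that mark and it says nothing of the array.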

How the results depend on the processing

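The count of 189 calls (104 higher in Aza, 85 lower) depends on the model and on the floor, and its split on the scale of the arrays. Replicate numbers are in the main fit as a block, and with no replicate block the fit called 0 probe sets (0 higher, 0 lower; 1016 at an unadjusted p under 0.05). The replicate block with no trend gave 2 (0 higher, 2 lower) and no replicate block with no trend 3 (1 and 2). The block and trend without the robust step gave 126 (77 and 49), the 8 arrays alone 87 (52 and 35), the deposited scale 159 (142 and 17), and a floor of 16 gave 0 (0 and 0; 1971 unadjusted). Leaving out the probe sets never above that floor, an alternative chosen after seeing the data, gave 122 (77 and 45 of 16496 tested). Only probe sets above the median level gave 257 (139 and 118 of 11107), and Holm's adjustment 20 (14 and 6). Median centring (166) and log2 of the value plus 16 (195) stayed near the main count. Leaving out arrays gave 27 to 231 calls, 18 to 126 higher and 9 to 105 lower: 120, 101, 27 and 90 without replicates 1 to 4, 65 and 124 without AGA replicates 3 and 4, and 80, 89, 55 and 108 without Aza replicates 1 to 4. All 189 calls kept their sign in each of the 28 settings that tested them, except under the floor of 16, where 187 did and 2 had no value above it. Settings that changed only the block, trend, robust step or adjustment leave each difference as it is. So do the 8 arrays alone and the fits without a vehicle array, so no sign could turn there. The other settings reuse the same arrays, so the kept signs are no separate support. Of the 189, 48 were called in at least 20 settings and 56 in under 10. Of 4056 values of uncalled named genes over the settings, 65 turned sign. Intensities near the floor limit the dim probe sets.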
